A study of Drosophila sechellia and Drosophila melanogaster and Drosophila simulans with 18 samples.

Results

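The 38 genes described here are the peptidoglycan recognition proteins (PGRP) and Gram-negative binding proteins (GNBP) that sense microbes, and the signalling genes of the Imd and Toll pathways of *Drosophila*. They were taken by gene symbol from the expression table of each species. All 38 are named in the *D. melanogaster* table (of 17649 genes), 20 in the *D. simulans* table (of 15372) and 1, *Rel*, in the *D. sechellia* table (of 17273), for a total of 50294 rows over the 3 tables. The other members were not analysed in *D. simulans* and *D. sechellia*, whose tables give most genes a numbered symbol. The paper names *PGRP* genes among the bacterial defence genes with lower expression on L-DOPA in *D. sechellia*. No recognition gene was found by symbol in that species, so this result was not examined here. The members fall into 15 recognition genes, 9 genes of the Imd arm and 14 genes of the Toll arm.

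The flies were adult females of 1 strain per species, for which the labels give no allele or transgene: *D. melanogaster* 14021-0231.36, *D. simulans* 14021-0251.195 and *D. sechellia* 14021-0428.25. They were reared at 20 degrees Celsius, collected 0 to 3 days after eclosion and held for 24 hr on instant food with 10 mg/ml L-DOPA or on the same food without it (control). Each library held RNA of 10 whole flies, with 3 libraries for each food and species and 18 in all. The question was which genes change expression with dietary L-DOPA, the precursor of dopamine, in a specialist on a fruit rich in it and in its generalist relatives.

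The tables hold 1 FPKM value (fragments counted in a gene, scaled to its length and to library size) for each gene and food, in which the authors' software combined the 3 libraries. There is therefore no SD for any value given here and no test across libraries. Whether a difference exceeds the spread between libraries was not tested. The tables give no read counts. By the study's mapping summary every *D. simulans* L-DOPA library had fewer mapped reads than every control library, so depth and food cannot be told apart in that species. In *D. sechellia* every L-DOPA library had a lower percentage of mapped reads than every control library. That percentage and food cannot be told apart there. Changes are given as the log2 of the FPKM on L-DOPA divided by that on control food, so that a positive change is a higher value on L-DOPA, and a gene was set beside all genes of its species with a mean FPKM of at least 1 over both foods and a value above 0 on both. In *D. melanogaster*, 10370 genes passed this limit, and the central 50% of their log2 changes ran from -0.09 to 0.10. In *D. simulans*, 9390 genes passed, and the central 50% ran from -0.23 to 0.06. In *D. sechellia*, 11912 genes passed, and the central 50% ran from -0.28 to 0.44. Values are the authors' FPKM throughout.

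The 2 pathways lead from microbial cell walls to antimicrobial peptides. In the Imd pathway, diaminopimelic acid-type peptidoglycan binds the receptors PGRP-LC and PGRP-LE, and a complex of Imd, Fadd and Dredd with the kinase Tak1 leads to cleavage of the NF-kB factor Relish (*Rel*). In the Toll pathway, secreted sensors and a cascade of serine proteases process the cytokine Spätzle (*spz*), which binds Toll (*Tl*) and frees the NF-kB factors Dorsal (*dl*) and Dif from the inhibitor Cactus (*cact*). Both pathways act in the fat body, and the Imd pathway also acts in the gut, where catalytic PGRPs that degrade peptidoglycan keep it in check.

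As a set, the pathway genes of *D. melanogaster* had changes much like those of all genes. None of the 37 members that passed the level limit was 1.5-fold higher or lower on L-DOPA. Over all genes that passed, 3.16% were at least 1.5-fold higher and 1.97% at least 1.5-fold lower. The median log2 change of the 37 members was -0.00, beside 0.00 over all genes. Changes above 0 were found for 18 members and below 0 for 19, and 19 of the 37 lay within the central 50% of all genes. The changes of all 37 were within the central 95%, which ran from -0.50 to 0.67. A log2 change of 0.32 or more was found for 1 member and one of -0.32 or less for 3 members, and over all genes for 6.7% and 4.76%.

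In *D. simulans*, 19 of the 20 named members passed the level limit. Those at least 1.5-fold higher on L-DOPA were *PGRP-SB1* and *nec*, and none was 1.5-fold lower. Over all *D. simulans* genes that passed, 2.8% were at least 1.5-fold higher and 2.48% at least 1.5-fold lower. The median log2 change of the 19 members was 0.09, beside -0.08 over all genes, and 11 members were above 0 and 8 below it. Among all genes 35.0% were above 0. The changes of 17 of the 19 members lay within the central 95% of all genes, which ran from -0.58 to 0.62, and those of *PGRP-SB1* and *nec* lay above it.

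**Figure D1:**
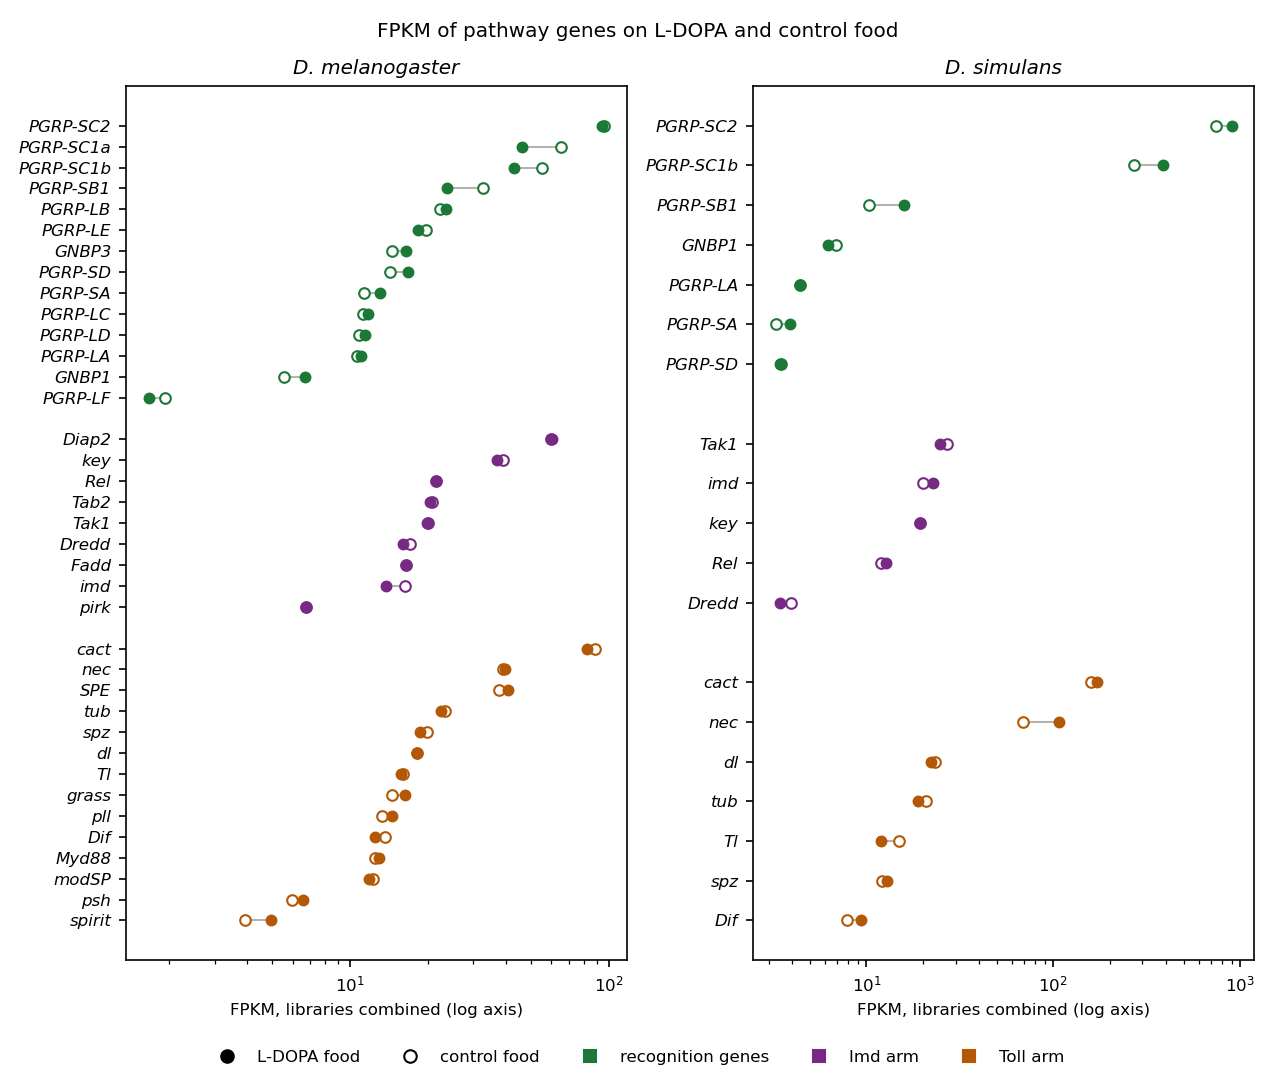
FPKM of each member on L-DOPA food (filled) and control food (open) in *D. melanogaster* (left, 37 genes) and *D. simulans* (right, 19 genes), on a log axis, by group. Most pairs of points lie close together, and the widest gaps are those of *PGRP-SC1a*, *PGRP-SB1* and *PGRP-SC1b* in *D. melanogaster* and of *nec*, *PGRP-SB1* and *PGRP-SC1b* in *D. simulans*. Each point is 1 value over 3 libraries, with no error.

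Among the recognition genes of *D. melanogaster*, the lowest changes were those of secreted amidases, enzymes that cleave peptidoglycan. *PGRP-SC1a* (FBgn0043576, BDGP6 chromosome 2R from 8709733 to 8710320, 1 exon) had an FPKM of 46.2 on L-DOPA and 65.2 on control food, a log2 change of -0.50. Among the 2462 genes whose level was within 2-fold of that of *PGRP-SC1a*, 98.7% had a higher change. *PGRP-SC1b* (FBgn0033327, chromosome 2R from 8713446 to 8715094, 1 exon) had 43.0 on L-DOPA and 55.4 on control food, a log2 change of -0.37. Its coding sequence is nearly identical to that of *PGRP-SC1a*, so that reads could be assigned to either, and the values of the pair are not independent. *PGRP-SC2*, the next gene of the cluster (FBgn0043575, chromosome 2R from 8716950 to 8717695) and the recognition gene with the highest level, had 94.1 on L-DOPA and 96.2 on control food, a log2 change of -0.03. The members of this cluster are known in the gut as enzymes that turn peptidoglycan into fragments that no longer stimulate the Imd pathway.

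*PGRP-SB1*, another secreted amidase (FBgn0043578, chromosome 3L from 16727299 to 16727989, 2 exons), had an FPKM of 23.7 on L-DOPA and 32.6 on control food in *D. melanogaster*. Its log2 change of -0.46 was below that of 98.8% of 3524 genes of similar level. Its neighbour *PGRP-SB2*, which ends at 16727288 on the same chromosome, was at 0.0379 on L-DOPA and listed at 0 on control food, and did not pass the level limit. *PGRP-LB* (FBgn0037906, chromosome 3R from 11452849 to 11460552), the remaining amidase that restrains the Imd pathway, had 23.5 on L-DOPA and 22.3 on control food, a log2 change of 0.07. The amidase genes thus did not all lie on the same side of 0.

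The receptors of the Imd pathway in *D. melanogaster* had changes close to 0. The transmembrane receptor gene *PGRP-LC* had an FPKM of 11.8 on L-DOPA and 11.2 on control food (log2 change 0.07). The gene of the intracellular receptor PGRP-LE had 18.4 on L-DOPA and 19.7 on control food (log2 change -0.10). Their levels on the 2 foods were close to each other. *PGRP-LF*, which encodes an inhibitor of PGRP-LC and lies beside it on chromosome 3L with *PGRP-LA*, had the lowest level of the 37, with 1.67 on L-DOPA and 1.93 on control food (log2 change -0.21). *PGRP-LA* had 11.1 on L-DOPA and 10.6 on control food (log2 change 0.06), and the log2 change of *PGRP-LD* was 0.08.

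The 4 members taken here as sensors of the Toll pathway were somewhat higher on L-DOPA in *D. melanogaster*, with log2 changes of 0.27 or less. *PGRP-SA* and *GNBP1* encode proteins that together sense lysine-type peptidoglycan. *PGRP-SA* had an FPKM of 13.1 on L-DOPA and 11.4 on control food, a log2 change of 0.20. *GNBP1* had 6.70 on L-DOPA and 5.54 on control food, a log2 change of 0.27, which was the highest of the recognition genes. *PGRP-SD*, which supports this recognition, had 16.7 on L-DOPA and 14.2 on control food (log2 change 0.23). *GNBP3*, a sensor of fungal glucans, had 16.5 on L-DOPA and 14.5 on control food (log2 change 0.18). All 4 sensors lay above the central 50% of all genes, as did *spirit*, *grass*, *psh*, *SPE* and *pll* of the Toll arm. Below it lay *PGRP-SB1*, *PGRP-SC1a*, *PGRP-SC1b*, *PGRP-LE*, *PGRP-LF*, *imd*, *Dredd*, *cact* and *Dif*. Of the 37 members, 51.4% lay within the central 50%, a share close to that of all genes. The 4 sensors were not among the groups planned beforehand. The log2 changes of *GNBP2* (0.08) and *GNBP-like3* (0.05), which are not members, lay within the central 50%. Over the 14 recognition genes that passed, the median log2 change was 0.07, with 8 genes above 0 and 6 below it. Within the central 50% of all genes lay 5 of the 14 recognition genes, 7 of the 9 genes of the Imd arm and 7 of the 14 genes of the Toll arm. Whether the groups differ in this was not tested.

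The Imd arm of *D. melanogaster* had a median log2 change of -0.01 over its 9 genes. The member with the highest level was *Diap2*, whose protein is a ubiquitin ligase of the pathway, with an FPKM of 60.3 on L-DOPA and 59.9 on control food (log2 change 0.01). *key*, the gene of the regulatory subunit of the IkB kinase, had 37.0 on L-DOPA and 38.9 on control food (log2 change -0.07). *Rel* (FBgn0014018, chromosome 3R from 9044183 to 9047977, 2 exons) had 21.5 on L-DOPA and 21.4 on control food (log2 change 0.01). The changes of these 3 genes lay within the central 50% of all genes.

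The adaptor gene *imd* (FBgn0013983, chromosome 2R from 18409796 to 18413599, 3 exons) had the lowest change of the arm, with an FPKM of 13.8 on L-DOPA and 16.2 on control food (log2 change -0.24). The annotation gives it exonic bases in common with *GstE9* on the other strand, and whether the reads were counted by strand is not given in the sources used here. *pirk*, a negative regulator that is itself a target of the pathway, had 6.79 on L-DOPA and 6.78 on control food (log2 change 0.00). The caspase gene *Dredd* had 16.0 on L-DOPA and 17.0 on control food (log2 change -0.09). The remaining members of the arm had nearly equal values on both foods. The kinase gene *Tak1* had 19.9 on L-DOPA and 19.97 on control food (log2 change -0.00), and the log2 changes of its partner *Tab2* and of the adaptor gene *Fadd* were -0.03 and -0.01.

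The Toll arm of *D. melanogaster* had a median log2 change of 0.01 over its 14 genes, with 7 above 0 and 7 below it. *cact* was the member with the highest level, with an FPKM of 82.1 on L-DOPA and 88.6 on control food (log2 change -0.11). *nec*, which encodes a serpin that restrains the protease Persephone, had 39.8 on L-DOPA and 39.1 on control food (log2 change 0.03). For the ligand and its receptor the 2 foods were close to each other. *spz* had 18.6 on L-DOPA and 19.8 on control food (log2 change -0.08). *Tl* had 15.7 on L-DOPA and 16.0 on control food (log2 change -0.03).

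Of the proteases upstream of Spätzle, *spirit* had the highest change of the 37 members in *D. melanogaster*, with an FPKM of 4.93 on L-DOPA and 3.94 on control food (log2 change 0.32). *grass* (0.16), *psh* (0.14), the gene of Persephone, and *SPE* (0.11), whose product cleaves Spätzle, also had positive log2 changes, whereas that of *modSP*, at the top of the cascade, was -0.05. Below the receptor act the adaptors and the kinase that lead to the loss of Cactus. The log2 changes of the adaptor gene *Myd88* and of the kinase gene *pll* were 0.05 and 0.12. The adaptor gene *tub* had 22.5 on L-DOPA and 23.4 on control food (log2 change -0.05). Neither NF-kB gene was higher on L-DOPA. *dl* had 18.1 on L-DOPA and 18.2 on control food (log2 change -0.01). *Dif* had 12.5 on L-DOPA and 13.6 on control food (log2 change -0.13).

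In *D. simulans* secreted amidase genes were again among the members with the largest changes, here above 0. *PGRP-SB1* (FBgn0068648, ASM75419v3 chromosome 3L from 16310370 to 16311058) had an FPKM of 15.9 on L-DOPA and 10.3 on control food, a log2 change of 0.63. That was above the change of 98.5% of 3422 genes of similar level. *PGRP-SC1b* (FBgn0067515, chromosome 2R from 5416069 to 5416709) had 384 on L-DOPA and 272 on control food, a log2 change of 0.50, above that of 95.3% of 488 genes of similar level. *PGRP-SC2* (FBgn0068645, chromosome 2R from 5419685 to 5420341) had 901 on L-DOPA and 740 on control food, a log2 change of 0.28. *PGRP-SC1a* was not analysed here in this species. *PGRP-SB2* was listed at 0 on L-DOPA and had 0.128 on control food, and did not pass the level limit.

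The *D. simulans* sensors of the Toll pathway did not share a direction. *PGRP-SA* had an FPKM of 3.89 on L-DOPA and 3.27 on control food (log2 change 0.25). *PGRP-SD* had 3.46 on L-DOPA and 3.48 on control food (log2 change -0.01). *GNBP1* had 6.26 on L-DOPA and 6.87 on control food (log2 change -0.13). The first was thus higher on L-DOPA, the second nearly equal on both foods and the third lower. Only the change of *PGRP-SA* lay above the central 50% of all *D. simulans* genes, and those of *PGRP-SD* and *GNBP1* lay within it. *PGRP-LA* had 4.41 on L-DOPA and 4.39 on control food (log2 change 0.01). The median log2 change of the 7 recognition genes that passed was 0.25.

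In the Toll arm of *D. simulans*, *nec* (FBgn0067495) had an FPKM of 107 on L-DOPA and 68.6 on control food. Its log2 change of 0.65 was the highest of the 19 members and above that of 97.8% of 1395 genes of similar level. This serpin gene was the only member of the arm past 1.5-fold. The lowest change was that of *Tl*, with 12.0 on L-DOPA and 14.9 on control food (log2 change -0.32). *cact* had 172 on L-DOPA and 159 on control food (log2 change 0.11). The ligand gene *spz* had 12.9 on L-DOPA and 12.2 on control food (log2 change 0.09). The NF-kB genes of the pathway lay on either side of 0. *Dif* had 9.40 on L-DOPA and 7.90 on control food (log2 change 0.25). *dl* had 22.1 on L-DOPA and 23.4 on control food (log2 change -0.08). The adaptor gene *tub* had 18.98 on L-DOPA and 20.9 on control food (log2 change -0.14). The median log2 change of the 7 genes was 0.09.

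The 5 genes of the Imd arm named in *D. simulans* had a median log2 change of -0.00. *imd* had an FPKM of 22.8 on L-DOPA and 20.0 on control food (log2 change 0.19). *Rel* had 12.8 on L-DOPA and 12.0 on control food (log2 change 0.09). The other 3 genes were equal or lower on L-DOPA. *key* had 19.3 on both foods (log2 change -0.00). *Tak1* had 24.8 on L-DOPA and 27.0 on control food (log2 change -0.12). *Dredd* had 3.45 on L-DOPA and 3.92 on control food (log2 change -0.19). The changes of 3 of the 5 lay within the central 50% of all genes, and those of all 5 within the central 95%.

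*Rel* is the only member that could be set side by side in the 3 species. In *D. sechellia* (FBgn0069546, dsec_caf1 scaffold_0 from 17007184 to 17010392) it had an FPKM of 47.3 on L-DOPA and 53.7 on control food, a log2 change of -0.18. This lay within the central 50% of the changes of that species. At a limit of 1.5-fold, which *Rel* did not reach, 17.1% of all *D. sechellia* genes were higher and 13.1% lower. Its log2 change was 0.09 in *D. simulans* and 0.01 in *D. melanogaster*, and the difference between species was not tested.

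**Figure D2:**
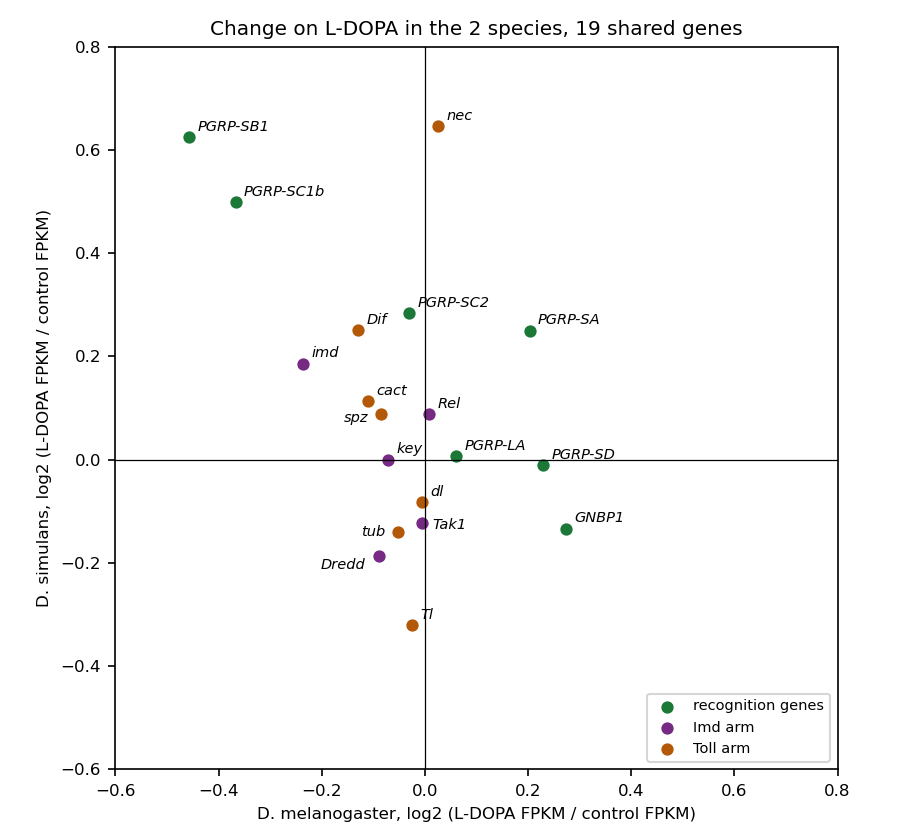
Log2 change on L-DOPA of the 19 members that passed the level limit in both tables, in *D. melanogaster* (x axis) and *D. simulans* (y axis), coloured by group. *PGRP-SB1* and *PGRP-SC1b* lie at the upper left, below 0 in *D. melanogaster* and above 0 in *D. simulans*, and most genes of the Imd and Toll arms lie near the origin.

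Of the 19 members that passed in both *D. melanogaster* and *D. simulans*, 4 were above 0 in both species, 6 below 0 in both, 7 above 0 in *D. simulans* only and 2 above 0 in *D. melanogaster* only. These were 21.1%, 31.6%, 36.8% and 10.5% of the members, beside 24.8%, 32.8%, 16.8% and 25.6% of all 262 genes with a shared symbol that passed in both tables. The share of members was not tested against that of all genes, and the members are among the 262. The widest differences between the species were those of *PGRP-SB1*, with a log2 change of 0.63 in *D. simulans* and -0.46 in *D. melanogaster*, and of *PGRP-SC1b*, with 0.50 in *D. simulans* and -0.37 in *D. melanogaster*. *nec* followed, with 0.65 in *D. simulans* and 0.03 in *D. melanogaster*. In *D. melanogaster* the value of *PGRP-SC1b* is not independent of that of *PGRP-SC1a*, which was not analysed in *D. simulans*. With no spread between libraries, none of these differences was tested.

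The other genes of the pathways in *D. melanogaster* also had changes near 0. Of 22 other Imd regulators and genes of its JNK branch, 19 were found and passed, with log2 changes from -0.15 to 0.12 and a median of -0.03. Of 38 other Toll genes (Toll family receptors, Spätzle family ligands, proteases, serpins and regulators), 36 were found and 26 passed, with log2 changes from -0.24 to 0.25 and a median of -0.04. None of these 45 genes was 1.5-fold higher or lower.

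Among the effector genes that the pathways induce, several of those of the Imd pathway had larger changes than the members. Of 12 targets of the Imd pathway, 10 passed in *D. melanogaster*, with a median log2 change of -0.76. At least 1.5-fold lower on L-DOPA were 6 of them, beside 1.97% of all genes, and none was 1.5-fold higher. The 6 were the attacin genes *AttA*, *AttB* and *AttC* and the cecropin genes *CecA1*, *CecA2* and *CecC*. Whether reads of 1 of these related genes were assigned to another was not examined, so the 6 values may not be independent. The other targets that passed had log2 changes of 0.02 (*DptA*), -0.15 (*Dro*), -0.40 (*DptB*) and 0.47 (*edin*). In *D. simulans* all 5 that passed were at least 1.5-fold higher, beside 2.8% of all genes, with a median of 2.86. In *D. sechellia*, 2 of the 3 that passed were at least 1.5-fold lower, beside 13.1% of all genes. *AttC*, which encodes an attacin, had an FPKM of 4.02 on L-DOPA and 16.5 on control food in *D. melanogaster*, and 103 on L-DOPA and 12.3 on control food in *D. simulans*. These attacin and cecropin values were known when the members were chosen. The 11 Toll targets that passed in *D. melanogaster* had log2 changes from -0.26 to 0.50 and a median of 0.00, and none was 1.5-fold higher or lower. In *D. simulans* the Toll target *Drs* (drosomycin) had 879 on L-DOPA and 834 on control food. *Mtk* (metchnikowin), which both pathways can induce, had 29.9 on L-DOPA and 14.6 on control food there.

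**Figure D3:**
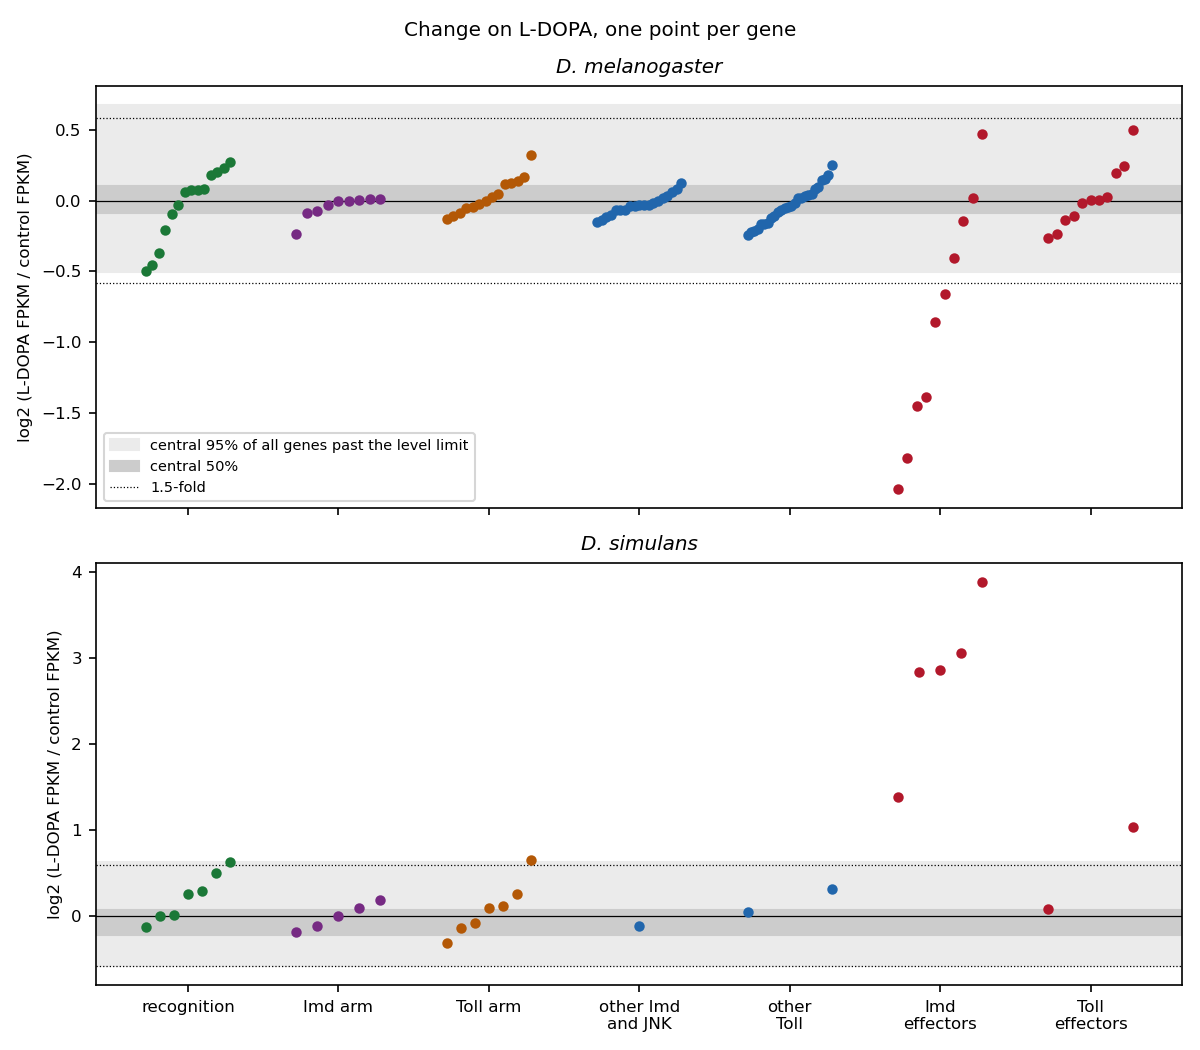
Log2 change on L-DOPA of each gene that passed the level limit in *D. melanogaster* (top) and *D. simulans* (bottom), by group, with the central 50% and 95% of all genes of the species as grey bands and 1.5-fold as dotted lines. The y axes differ in range. The recognition, Imd and Toll genes lie between the dotted lines, except *PGRP-SB1* (0.63) and *nec* (0.65) in *D. simulans*, while 6 Imd effectors lie below the lower line in *D. melanogaster* and 5 lie above the upper line in *D. simulans*.

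RNA came from whole flies, so that fewer cells of a type and less RNA per cell cannot be told apart for any of these values. In *D. melanogaster*, the 9 hemocyte markers that passed of 11 had a median log2 change of 0.07 and a summed FPKM over the 11 of 118 on L-DOPA and 114 on control food. Most of this sum was *crq*, with 77.6 on L-DOPA and 74.0 on control food. The 9 fat body markers had a median of -0.06 and a sum of 17701 on L-DOPA and 19673 on control food. That sum was mostly *Yp1*, *Yp2* and *Yp3*, with 7290, 5770 and 4239 on L-DOPA and 8311, 6764 and 4160 on control food. The gut markers (8 of 9 passed) had a median of -0.03 and a sum of 5231 on L-DOPA and 5562 on control food. All 10 ovary markers were below 0, with a median of -0.22 and a sum of 5205 on L-DOPA and 6649 on control food. Of 9 markers of the male reproductive system none passed, and their highest FPKM was 0.823. The *D. simulans* table names 2 hemocyte markers, 1 gene of the fat body list (*Yp2*, log2 change 0.48), 3 ovary markers (median -0.42) and no gut marker. In *D. sechellia*, *Yp2*, the only gene of the fat body list named there, had an FPKM of 6728 on L-DOPA and 11519.9 on control food (log2 change -0.78). The ovary markers *bcd* and *nos* had log2 changes of 0.59 and -0.45 in that species. The part of these cell types in the changes of the members was not tested.

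The levels of several members on control food differed by at least 2-fold between the species. The median ratio of *D. simulans* to *D. melanogaster* was 0.90 over the 19 members and 0.85 over all 262 genes with a shared symbol. On control food, *PGRP-SC2* had an FPKM of 740 in *D. simulans* and 96.2 in *D. melanogaster*, a ratio of 7.69, and *PGRP-SC1b* had 272 in *D. simulans* and 55.4 in *D. melanogaster*, a ratio of 4.91. These were the only members at least 2-fold higher in *D. simulans*, and 13% of the 262 genes with a shared symbol that passed in both tables were. Of the 19 members, 6 were at least 2-fold lower in *D. simulans*, as were 26.7% of the 262 genes. *Dredd* had 3.92 in *D. simulans* and 17.0 in *D. melanogaster*. *PGRP-SD* had 3.48 in *D. simulans* and 14.2 in *D. melanogaster*. *PGRP-SA*, the other of these sensors of the Toll pathway, had 3.27 in *D. simulans* and 11.4 in *D. melanogaster*. The amidase gene *PGRP-SB1*, unlike the *PGRP-SC* genes, was also lower, with 10.3 in *D. simulans* and 32.6 in *D. melanogaster*. The other 2 were *PGRP-LA* (4.39 in *D. simulans* and 10.6 in *D. melanogaster*) and *key* (19.3 in *D. simulans* and 38.9 in *D. melanogaster*). The tables were normalised separately and FPKM depends on the gene model, which for *PGRP-SC1b* spans 641 bases in the *D. simulans* table and 1649 bases in the *D. melanogaster* table. Reads of *PGRP-SC1b* could also be assigned to *PGRP-SC1a*, which was found by symbol in *D. melanogaster* but not in *D. simulans*. These ratios are given as a description for those reasons.

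**Figure D4:**
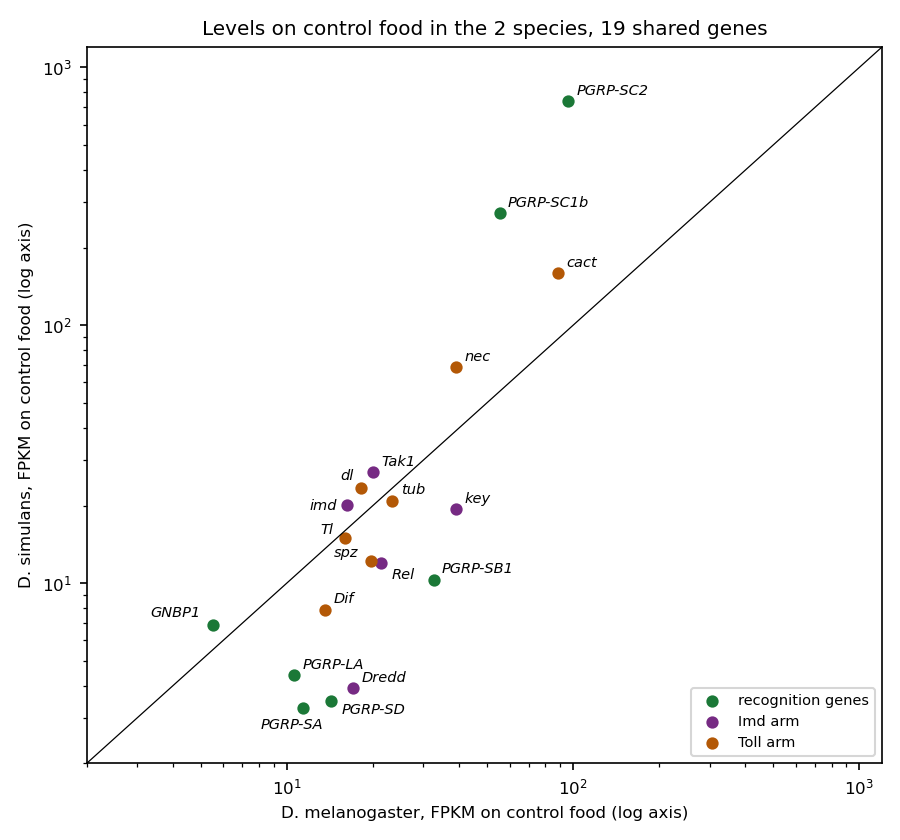
FPKM on control food of the 19 members that passed in both tables, in *D. melanogaster* (x axis) and *D. simulans* (y axis), both on log axes, with the line of equal values. *PGRP-SC2* and *PGRP-SC1b* lie farthest above the line, and *Dredd*, *PGRP-SD*, *PGRP-SA* and *PGRP-SB1* lie farthest below it.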

How the data were processed

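RNA-seq libraries of whole adult females were aligned by the authors with Bowtie2 to BDGP6 (*D. melanogaster*), ASM75419v3 (*D. simulans*) or dsec_caf1 (*D. sechellia*), and Cuffdiff was run on Ensembl annotations (releases 95 and 42) with geometric normalization and length correction. GEO's processing notes list FastQC, Bowtie2 and Cuffdiff without versions, and BDGP6 as the only build. The FPKM values deposited by the authors are 1 value per gene and food, combined over 3 libraries. The tables also hold the authors' own fold changes, test statistics, p-values, q-values and significance calls, which were not used.

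Log2 changes were computed without a pseudocount for genes that averaged an FPKM of 1 or more over the foods and were above 0 on each. Ranks among genes of similar level describe the tables and are not p-values. Every named member is accounted for. Both values are given for members past 1.5-fold, for the 2 highest in each group and for those named in several species, and other names were chosen after their values were seen. The members and lists were chosen with earlier results of these data known. Coordinates of *D. melanogaster* genes are from Ensembl release 115 of BDGP6, in which all 38 members were found by identifier and 26 start at the base the table gives. For *D. simulans* and *D. sechellia* they are those of the tables, counted from 1, and span any overlapping genes. Exonic bases are shared with another gene by 12 members: *PGRP-SD*, *PGRP-LD*, *PGRP-LF*, *imd*, *key*, *Dredd*, *Diap2*, *spz*, *pll*, *cact*, *Dif* and *SPE*. Alternatives were a pseudocount, other level limits, centring and other folds. The computation was tested on simulated data. Python 3.11.15, numpy 2.4.6, pandas 2.3.3 and matplotlib 3.10.9 were used.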

Additional observations from a re-analysis of the deposited data

How the results depend on the processing

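No paired analysis was possible because the tables combine the 3 libraries of each food, and leaving out a library could not be run for the same reason. A value was taken as moved when it shifted by at least 0.1 on the log2 scale, or a count by more than 1.5 times. With a log2 change of 0.32 in size as the limit, 1 member was higher and 3 were lower in *D. melanogaster*, in place of 0 and 0 at 1.5-fold. In *D. simulans* the members past the limit on the higher side numbered 0 at 2-fold and 1 with log2(FPKM + 1), in place of 2. With a mean FPKM of at least 5, the median log2 change of the *D. simulans* recognition genes was 0.39. Without small RNA genes the median log2 change of all *D. sechellia* genes was 0.11, and *Rel*, the only gene of the Imd arm named there, had a change of -0.29 relative to it. The other medians and counts moved by less under each of these settings. Centring on the median gene changed the sign of 1 member in *D. melanogaster* (*pirk*) and 2 in *D. simulans* (*key* and *PGRP-SD*). Depth and precision of single genes are unknown.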

Other observations

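Several Toll family genes other than *Tl* were below an FPKM of 1 in whole *D. melanogaster* females, and others were above it. *18w*, *Tehao* and *Tollo* had 4.12, 2.33 and 1.22 on L-DOPA and 4.45, 2.28 and 1.42 on control food. Among the genes below 1 were the following. *Toll-7* had an FPKM of 0.465 on L-DOPA and 0.531 on control food, *Toll-6* had 0.347 on L-DOPA and 0.296 on control food, and *Toll-4* had 0.0366 on L-DOPA and 0.0388 on control food. The neurotrophin gene *NT1*, which encodes a Spätzle family ligand, was low in each species, with 0.160 on L-DOPA and 0.0687 on control food in *D. melanogaster*. It had 0.161 on L-DOPA and 0.226 on control food in *D. simulans*, and 0.184 on L-DOPA and 0.125 on control food in *D. sechellia*.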
